A study of Mus musculus with 8 samples.

Results

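The genes described here are those on which *Bacillus clausii* and *Bifidobacterium bifidum* went to opposite sides of untreated cells in the mouse macrophage-like line RAW 264.7. Each array compared treated cells with untreated cells, and a gene's value is the log2 ratio of the 2, so that 0 means no difference from untreated cells and 1 a doubling. A gene was taken as a member where both arrays of 1 strain (replicates 1 and 2) had a log2 ratio of at least 0.4, which is 1.32-fold, and both arrays of the other strain had -0.4 or less. Of 12955 genes measured on those 4 arrays, 144 met the rule. In 57 of them (0.44% of the genes measured) *B. clausii* was the strain above untreated cells and *B. bifidum* the strain below, and in 87 (0.672%) it was the other way round. The members were chosen by these log2 ratios on replicates 1 and 2, so those ratios are given as a description and no test is made on them. Replicate 3 of both strains and the *Lactobacillus acidophilus* arrays had no part in the choice.

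The study grew RAW 264.7 cells, a line that traces back to BALB/c mice, and added *L. acidophilus*, *B. clausii* or *B. bifidum* at a multiplicity of infection of 1 for 6 hours, against time-matched cells left without bacteria. RNA of treated cells carried the dye Cy5 and RNA of untreated cells the dye Cy3 on all 8 arrays, and the dyes were never exchanged. There were 2 arrays of *L. acidophilus*, 3 of *B. clausii* and 3 of *B. bifidum*. The design names the replicates as biological, but no label ties an array to a culture of its own, so a spread between arrays may be technical. RAW 264.7 is a transformed line, and what it shows may differ from macrophages taken from an animal.

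Arrays 1 and 2 of *B. clausii* and *B. bifidum* lay on 1 glass slide (slide 2), and array 3 of each strain lay with both *L. acidophilus* arrays on another (slide 1). *B. clausii* array 3 was the poorest: 12484 of its probes were well above background in a channel, against 21420 to 26393 on the other 7 arrays, its spot grid was marked as not good, and the median variation between replicate spots of a probe was 72.5% in Cy5 and 67.4% in Cy3, against at most 21.5% elsewhere. The cell type label was checked against marker genes: of 10 macrophage markers 9 had a probe, and 8 of those were above background on all 4 arrays of slide 2. Of 5 epithelial markers none was, and 1 each of the dendritic cell, lymphocyte and fibroblast markers and 2 of the neutrophil markers were. For the osteoclast, a bone-resorbing cell that RAW 264.7 cells can become, 4 of 6 markers were above background, and 1 of these, Acp5, is among the 144 genes. Calls on a single array separate the cell types less well. Over all 8 arrays, the most above background on 1 array was 6 of 6 lymphocyte and 5 of 6 fibroblast markers, and the fewest was 0 for both.

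Macrophages meet bacteria through surface and endosomal receptors, which switch on immediate early transcription factors, chemokines and interferon-stimulated genes. Beside this, they carry programmes for what they take up: lysosomal hydrolases break it down, ferroportin returns iron to the outside, and the transcription factor NRF2 keeps glutathione synthesis and heme breakdown running. Sterol synthesis in these cells is under feedback control by the sterol content of the endoplasmic reticulum. A list of pattern recognition and signalling genes had no member among the 144 genes. Members of the other programmes named here were among them, and they are taken in turn below.

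The genes above untreated cells with *B. clausii* had a median log2 ratio of 0.61 to *B. clausii* and -0.65 to *B. bifidum*. In the opposite set the medians were -0.73 and 0.54, and over all 12955 measured genes they were -0.02 and -0.01. Past the threshold on both arrays were 15.6% of measured genes upward and 23.3% downward for *B. clausii*, and 11.9% upward and 19.6% downward for *B. bifidum*. The median gap between the 2 arrays of a strain was 0.12 and 0.09 in the first set and 0.15 and 0.06 in the second, *B. clausii* first, against 0.17 and 0.09 over all measured genes; the rule, which asks both arrays to pass, bears on these gaps. In the plot of each gene's ratio to the 2 strains, the members fill the upper left and lower right corners and the other genes run from lower left to upper right.

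**Figure D1:**
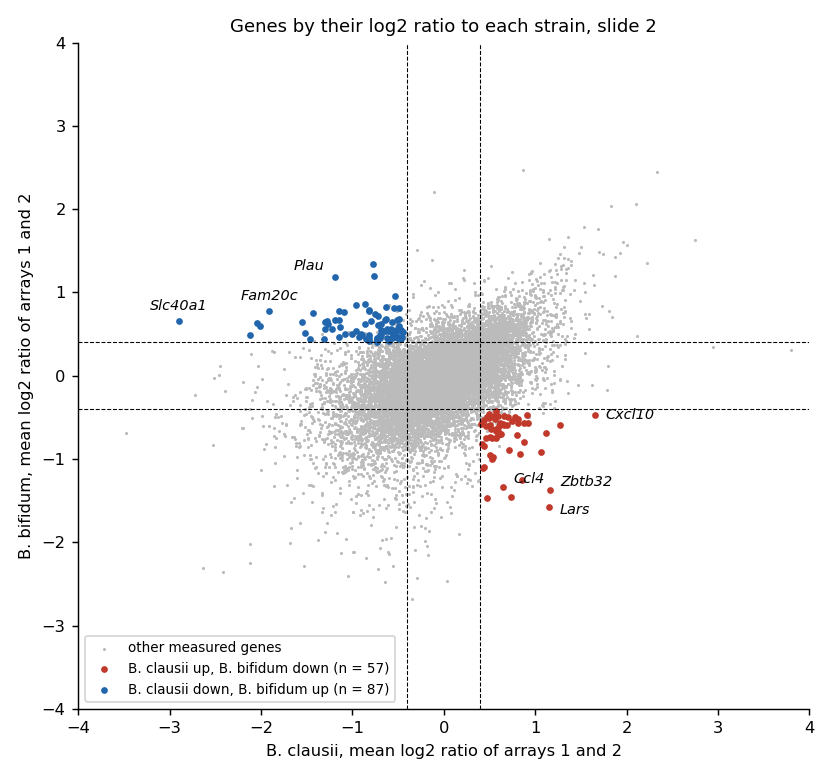
Mean log2 ratio (treated over untreated) of arrays 1 and 2 with *B. clausii* (horizontal axis) against the same with *B. bifidum* (vertical axis), 1 point per measured gene. Red points are the 57 genes above untreated cells with *B. clausii* and below with *B. bifidum*, blue points the 87 genes of the opposite kind, grey points the other 12811 measured genes, and dashed lines mark log2 ratios of -0.4 and 0.4; Slc40a1 lies farthest to the left of the blue points and Lars lowest of the red ones.

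Among the members above untreated cells with *B. clausii* were 2 chemokines and 3 early response genes. Cxcl10, a chemokine that draws T cells and is itself an interferon target, had log2 ratios of 1.62 and 1.68 on the *B. clausii* arrays and -0.51 and -0.43 on the *B. bifidum* arrays. Ccl4, a chemokine for monocytes and T cells, had 0.63 and 0.65 against -1.30 and -1.38. Both genes differed between the strains by about the same amount, 4.36-fold for Cxcl10 and 3.94-fold for Ccl4, but for Cxcl10 most of it lay above untreated cells with *B. clausii* (3.14-fold) and for Ccl4 most of it lay below them with *B. bifidum* (2.53-fold). Of 18 measured genes in a list of chemokines and cytokines, these were the 2 that met the rule, while 6 were past the threshold upward and 4 downward with *B. clausii*, and 4 upward and 4 downward with *B. bifidum*.

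Ier3, an immediate early gene linked to cell survival, had log2 ratios of 1.33 and 1.20 with *B. clausii* and -0.62 and -0.56 with *B. bifidum*. The values of Egr2, a zinc finger factor of the early growth response family, were 1.02 and 1.22 against -0.66 and -0.71. Klf2, a factor that restrains inflammatory genes in macrophages, had 0.52 and 0.53 against -1.0 on both arrays, but its other measured probe differed between the strains by -0.37, in the opposite direction. Of 27 measured early response genes these 3 met the rule; 16 were past the threshold upward with *B. clausii* and 4 downward, against 8 upward and 9 downward with *B. bifidum*. A spot of Egr2 was marked as an outlier on 1 of the 4 arrays, as were spots of Ctsd, Tnfrsf1b, Prnp, H2-Q7 and Creb1.

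The promoters of Cxcl10 and Egr2 are shown because each holds a motif by which its gene class is known, an interferon-stimulated response element in Cxcl10 and a serum response element in Egr2. Sequences are from RefSeq on assembly GRCm38.p6, which is not the build named in the array files (mm9), and are written 5′ to 3′ on the strand of the gene with the motif in capitals. The Cxcl10 stretch lies at chr5:92349033-92349139 on the minus strand, with the motif 213 to 204 bases before the start of transcription, and that of Egr2 at chr10:67537787-67537816 on the plus strand, with the motif 72 to 63 bases before a start.
Cxcl10: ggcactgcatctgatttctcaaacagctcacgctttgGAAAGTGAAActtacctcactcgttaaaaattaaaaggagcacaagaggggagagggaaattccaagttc
Egr2: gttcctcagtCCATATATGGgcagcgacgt

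Promoters from 250 bases before to 50 bases after a start were found for 36 of the 57 genes (47 promoters) and for 59 of the 87 genes (77 promoters), and motifs were looked for on both strands. A loose pattern for the serum response element, open at some inner positions, was in 8.51% of the promoters of the first set. It was in 3.90% of the second and in 1.49% of the promoters of measured genes. In the first set these were 4 promoters, 3 of them from alternative starts of Egr2 that share the same motif copy. In the second they were 3 promoters, 2 of them from alternative starts of Dhx34 that also share a copy. Of these copies only that of Egr2 has A and T alone inside, as the serum response element does. Those of Ogt, Dhx34 and H2-Q7 also hold C and G there, so they are not taken as serum response elements. The 1.49% was not sorted in this way, so the shares do not compare serum response elements. The interferon-stimulated element was in 2.13%, 3.90% and 2.98%. So Cxcl10 was the 1 gene of its set with that element in this window.

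Zbtb32, a zinc finger repressor of lymphoid and myeloid cells, had log2 ratios of 1.11 and 1.21 with *B. clausii* and -1.40 and -1.34 with *B. bifidum*, a 5.79-fold difference. Zranb2, a splicing regulator, had 0.84 and 0.83 against -1.07 and -0.81. Sltm, an RNA-binding protein of the scaffold attachment factor family, had 0.40 and 0.55 against -1.53 and -1.40, so it lay just inside the threshold for *B. clausii* and far past it for *B. bifidum*. Kdm6b, a histone demethylase that macrophages use in inflammatory transcription, had 0.54 and 1.22 against -0.85 and -0.75, and its *B. clausii* arrays lay farther apart from each other than its *B. bifidum* arrays did.

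Hnrnpa3 and Arglu1 were the 2 of 57 measured splicing and RNA binding genes that met the rule. For Hnrnpa3, which binds RNA in the nucleus, the values were 0.45 and 0.42 with *B. clausii* against -1.17 and -1.04 with *B. bifidum*. Arglu1 had 0.45 and 0.54 against -0.56 and -0.47. In that list 18 genes were past the threshold upward and 23 downward with *B. clausii*, and 12 upward and 15 downward with *B. bifidum*, and its medians were 0.01 and 0.07. Rest, a repressor of neuronal genes, and Creb1, the factor that binds cyclic AMP response elements, had 0.84 and 0.58, and 0.73 and 0.76, with *B. clausii*. With *B. bifidum* Rest had -0.50 on both arrays, and Creb1 had -0.55 and -0.54. Klf7, which lies next to Creb1 on the chromosome, had 0.45 and 0.43 against -0.80 and -0.89.

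The largest difference in this direction was on Lars, the leucyl-tRNA synthetase, at 0.90 and 1.40 with *B. clausii* and -1.46 and -1.69 with *B. bifidum*, or 6.63-fold. That value rests on 1 probe: 2 other measured probes of Lars differed between the strains by -0.06 and 0.18. Of all 144 genes 55 had another measured probe, and for 10 of these at least 1 such probe went the other way. Beside Lars and Klf2 these were Hnrnpa3, Eif4g2, Kmt5a, Ogt and Rbmx in the same set, and Tnfrsf1b, Plxna1 and Ube2g2 in the opposite set. Ahnak was not counted, since 2 of its 5 probes pointed *B. clausii* up and *B. bifidum* down and 1 the other way round.

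Of the fixed list of cholesterol and fatty acid synthesis, 3 genes met the rule, all on this side. Stard4, which carries cholesterol between membranes, had log2 ratios of 0.95 and 0.76 with *B. clausii* against -1.25 on both arrays with *B. bifidum*, and its 2 other probes differed in the same direction by 1.23 and 1.43. Elovl6, which lengthens fatty acids, had 0.59 and 0.41 against -1.05 and -0.85. Cyp51, the lanosterol demethylase of cholesterol synthesis, had 0.43 and 0.68 against -0.52 and -0.53. The list had 34 measured genes, of which 19 were past the threshold upward with *B. clausii* and 1 downward, against 3 upward and 7 downward with *B. bifidum*; the list's medians were 0.48 and -0.18. Lpin1, a phosphatidate phosphatase, had 0.69 and 0.50 against -0.47 and -0.49. These values depended on the processing. With normexp and loess normalization Stard4 stayed past the threshold, at 0.91 and 0.91 against -0.98 and -0.81. Inside it on at least 1 array were Cyp51, at 0.28 and 0.34 against -0.22 and -0.06, and Elovl6, at 0.52 and 0.36 against -0.61 and -0.34. Lpin1 was too, at 0.45 and 0.24 against -0.22 and -0.15.

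Slc4a7, a sodium bicarbonate transporter, had log2 ratios of 0.67 and 0.80 with *B. clausii* against -1.57 and -1.36 with *B. bifidum*. Hsp90b1, the HSP90 of the endoplasmic reticulum and a folding partner of Toll-like receptors, had 0.74 and 0.67 against -0.85 and -0.93. It was the 1 member on this side of 24 measured chaperones and enzymes of that compartment, and Ero1a, an oxidase that helps form disulfide bonds, was on the other side at -0.90 and -0.91 with *B. clausii* and 0.45 and 0.54 with *B. bifidum*. Tyms, the thymidylate synthase, had 0.50 and 0.44 against -0.53 and -0.46. The pseudogene Tyms-ps had nearly the same values, 0.48 and 0.43 against -0.62 and -0.60; the 2 transcripts are alike in sequence, so their probes may read the same RNA.

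In the opposite set, the largest differences were below untreated cells with *B. clausii*. Slc40a1, which encodes ferroportin, the iron exporter of macrophages, had log2 ratios of -3.21 and -2.59 with *B. clausii* and 0.74 and 0.57 with *B. bifidum*, so it lay 7.46-fold below untreated cells with 1 strain and 1.58-fold above with the other, 11.8-fold apart. This was the widest gap of the 144 genes. In bulk RNA of a culture, a lower level per cell and fewer cells that express a gene cannot be told apart.

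Ferroportin is also a target of NRF2, and it was 1 of 6 genes of the NRF2 and oxidative stress list that met the rule, all 6 of them below untreated cells with *B. clausii*. Hmox1, the heme oxygenase that frees iron from heme, had log2 ratios of -0.85 and -0.79 against 0.72 and 0.86. Gclm, a subunit of the enzyme that sets the pace of glutathione synthesis, had -1.04 and -1.25 against 0.66 and 0.68. Slc7a11, the cystine importer that feeds glutathione synthesis, had -1.07 and -1.48 against 0.82 and 0.48. These 3 genes and ferroportin thus span heme breakdown, iron export and the supply and synthesis of glutathione.

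Osgin1, an oxidative stress gene that NRF2 controls, had -1.15 and -1.44 against 0.61 and 0.67. For Cd36, a scavenger receptor for oxidised lipoproteins, the values were -0.53 and -0.55 against 0.47 and 0.50. The list had 31 measured genes, of which 17 were past the threshold downward with *B. clausii* and 2 upward, against 4 downward and 9 upward with *B. bifidum*, and its medians were -0.54 and 0.15.

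Parts of the promoters of Gclm and Slc7a11 are shown for 2 motifs tied to this group, the antioxidant response element that NRF2 binds (TGACNNNGC) and the amino acid response element (TGATGNAA). The first is at chr3:122245363-122245491 on the plus strand with the motif on the opposite strand, 134 to 126 bases before the start. The second is at chr3:50443614-50443718 on the minus strand, with the motif on the opposite strand 47 to 40 bases before the start; another copy lies 66 to 59 bases before it, in lower case.
Gclm: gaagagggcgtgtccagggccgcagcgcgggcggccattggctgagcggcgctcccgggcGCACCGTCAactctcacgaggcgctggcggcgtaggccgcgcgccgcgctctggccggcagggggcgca
Slc7a11: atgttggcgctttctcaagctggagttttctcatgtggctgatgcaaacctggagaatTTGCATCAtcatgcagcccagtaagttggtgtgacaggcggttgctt
The NRF2 motif was in 27.3% of the 77 promoters of this set and in 23.4% of the 47 promoters of the set that *B. clausii* held above untreated cells, against 14.2% of the promoters of measured genes; 3 of the 11 promoters with it in the latter set are alternative starts of Egr2 that share 1 copy. The amino acid response element was in 7.79% and 0%, against 2.36%. The NRF2 motif can overlap the AP-1 motif (TGANTCA), which was in 10.4% and 6.38%, against 5.23%.

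Of the lysosome list, 2 genes met the rule, both below untreated cells with *B. clausii*. Ctsd, the aspartic protease of lysosomes, had log2 ratios of -1.13 and -1.04 with *B. clausii* and 0.52 and 0.49 with *B. bifidum*, and its other probe differed by -1.43 in the same direction. Neu1, the lysosomal sialidase, had -0.48 and -0.55 against 0.71 and 0.63. The list had 32 measured genes, of which 21 were past the threshold downward with *B. clausii* and 1 upward, against 4 downward and 6 upward with *B. bifidum*, and its medians were -0.57 and -0.06. Outside that list, Naglu, which removes sugars from heparan sulfate, had -0.76 and -0.75 against 0.71 and 0.76.

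Fnip1 and Fnip2 are partners of folliculin, which links amino acids at the lysosome to the kinase mTORC1 and to the lysosomal gene factor TFEB. Fnip2 had log2 ratios of -0.69 and -0.86 with *B. clausii* and 1.33 and 1.34 with *B. bifidum*. Fnip1 had -0.83 and -0.89 against 0.59 and 0.65, with its 2 other probes at differences of -1.41 and -1.01. Gpnmb, a membrane glycoprotein of lysosome-rich macrophages, had -1.41 and -1.63 against 0.54 and 0.48.

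The promoters of Ctsd, Naglu and Fnip1 are set side by side because each holds the palindrome CACGTG, the core of the element that TFEB binds at lysosomal genes, within 98 bases of the start. They lie at chr7:142387860-142387985 (minus strand), chr11:101069961-101070086 (plus strand) and chr11:54438044-54438169 (plus strand).
Ctsd: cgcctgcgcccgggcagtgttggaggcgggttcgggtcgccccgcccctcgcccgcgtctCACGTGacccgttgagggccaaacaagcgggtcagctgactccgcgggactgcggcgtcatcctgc
Naglu: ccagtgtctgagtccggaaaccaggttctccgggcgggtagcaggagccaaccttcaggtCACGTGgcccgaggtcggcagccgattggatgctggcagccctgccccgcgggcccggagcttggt
Fnip1: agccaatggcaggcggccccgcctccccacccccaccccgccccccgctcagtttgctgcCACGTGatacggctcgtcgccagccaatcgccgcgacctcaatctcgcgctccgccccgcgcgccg
Over both sets this motif was in 7.79% of the 77 promoters and 10.6% of the 47 promoters, against 10.1% of the promoters of measured genes.

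Plau, the urokinase that activates plasmin, had log2 ratios of -1.28 and -1.09 with *B. clausii* and 1.18 and 1.19 with *B. bifidum*, the same distance of 2.28-fold and 2.27-fold from untreated cells on either side. Acp5, the acid phosphatase that marks osteoclasts and some macrophages, had -0.79 and -1.12 against 0.81 and 0.89. Of 9 measured genes of the osteoclast and matrix list these 2 met the rule. Fam20c, a kinase of secreted proteins, had -1.81 and -2.01 against 0.76 and 0.80. Sh3bp2, an adaptor that acts with the kinase Syk in osteoclast formation, had -1.37 and -1.74 against 0.61 and 0.69, and Syk itself had -0.58 and -0.59 against 0.48 and 0.64.

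Several members of this set are receptors, picked here by their role with values seen. Csf2rb2 and Csf2rb, the beta chains of the receptors for interleukin 3 and for GM-CSF and interleukin 5, are neighbours on chromosome 15 and are alike in sequence, so their probes may share RNA. Csf2rb2 had log2 ratios of -1.20 and -1.10 against 0.87 and 0.70, and Csf2rb had -0.84 and -0.86 against 0.47 and 0.42. P2rx4 and P2rx7, ATP-gated channels that also lie side by side, on chromosome 5, had -1.37 and -1.15 against 0.61 and 0.64, and -0.70 and -0.57 against 0.64 and 0.73. These 2 pairs and Klf7 with Creb1 were the 3 pairs of next neighbours among the 144 genes.

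Tgfbr1, the type I receptor for TGF-beta, had log2 ratios of -0.70 and -0.83 with *B. clausii* against 1.16 and 1.23 with *B. bifidum*, and Pmepa1, a feedback inhibitor of that pathway, had -0.42 and -0.64 against 0.90 and 1.02. Tnfrsf1b, a receptor for tumour necrosis factor, had -0.72 on both *B. clausii* arrays against 0.76 and 0.68, but its other probe showed a difference of 0.03. Il4ra, the interleukin 4 receptor chain, had -0.43 and -0.61 against 0.64 and 0.45. For Lilrb4a, an inhibitory receptor, the values were -1.02 and -1.28 against 0.53 and 0.40, which is just inside the threshold on the second *B. bifidum* array.

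Antigen presentation gave H2-D1, at -0.50 and -0.48 against 0.55 and 0.66, and H2-Q7, at -0.50 and -0.44 against 0.54 and 0.54, as the 2 of 23 measured genes. H2-Q4 had -0.51 and -0.40 against 0.45 and 0.48. These class I genes have near-identical copies, so which of them a probe reads is uncertain. Of the 37 measured interferon-stimulated genes, 33 were past the threshold downward with *B. clausii*, and 13 downward and 2 upward with *B. bifidum*. Oasl2, a member of the oligoadenylate synthetase-like family, was the 1 that met the rule, at -2.65 and -1.58 against 0.47 and 0.52. Cxcl10 is counted with the chemokines and not in that list, and it stood above untreated cells where those 33 genes stood below.

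Rnf144b, an E3 ubiquitin ligase, had log2 ratios of -1.81 and -2.28 against 0.67 and 0.60, and Lhfpl2, a tetraspan membrane protein, had -1.79 and -2.23 against 0.40 and 0.80. Tmem268, a membrane protein, had -1.49 and -1.37 against 0.70 and 0.80, and its 2 other probes differed by -2.12 and -1.41. Cpt1a, which brings fatty acids into mitochondria, had -0.46 and -0.52 against 0.44 and 0.46. Lists of Golgi transport, autophagy, heat shock proteins, histones, mitochondrial respiration, pattern recognition, ribosomal proteins and the vacuolar proton pump had no member.

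**Figure D2:**
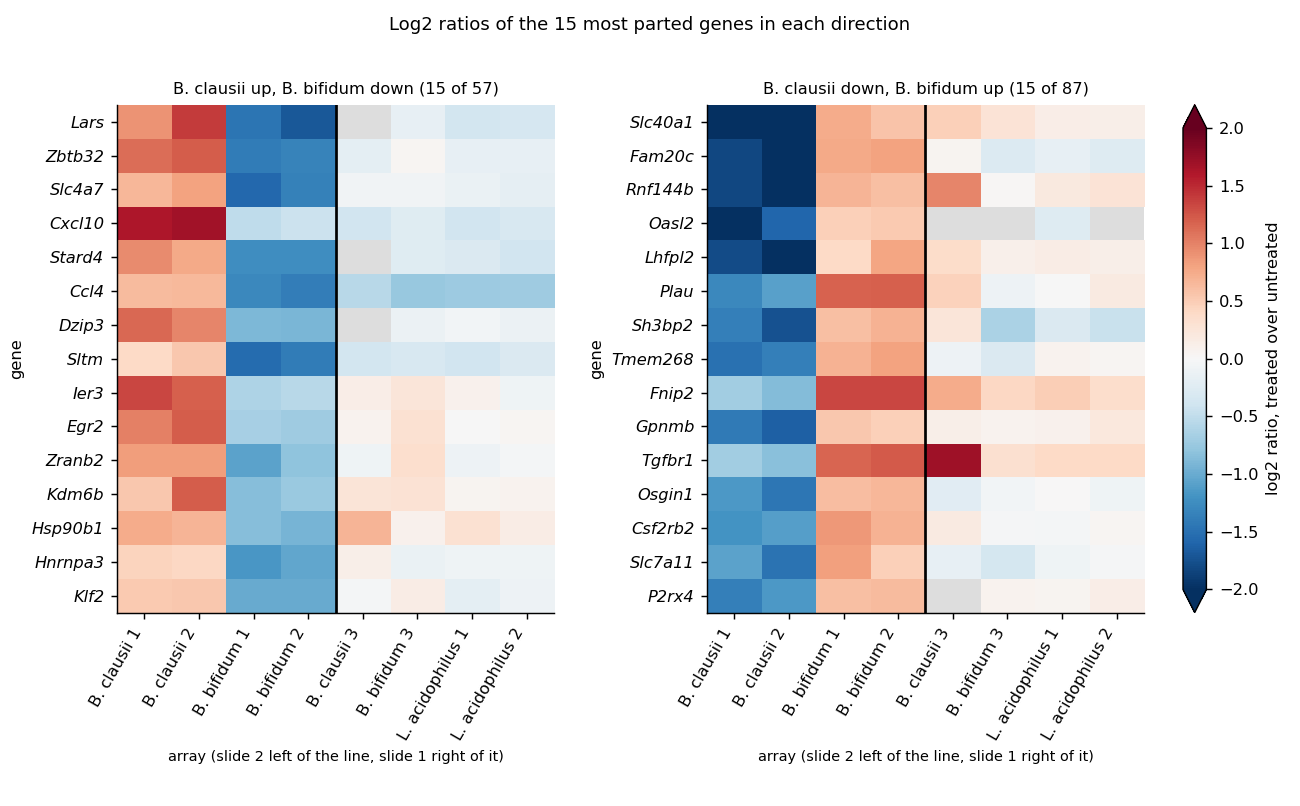
Log2 ratio (treated over untreated, colour scale cut at -2 and 2) of the 15 named genes with the widest gap in each direction, 1 row per gene and 1 column per array, with the 4 arrays that chose the genes left of the black line. Grey cells have no value. The opposite colours left of the line are the rule itself; right of it, on slide 1, most cells are pale, with Ccl4 below 0 on all 4 arrays and Tgfbr1 at 1.70 on *B. clausii* array 3.

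The threshold cut through a continuous range. The members nearest to it were Slc37a4, Sltm and Ogt in the first set, each with 1 array at 0.40 or -0.40, and Lhfpl2, Lilrb4a and H2-Q4 in the second. Just outside were Sde2, Ctsc and Chtf18, and Gcnt1, Hk3 and Rtf2. Ctsc, another lysosomal protease, had 0.40 and 0.54 with *B. clausii* against -0.62 and -0.71 with *B. bifidum*, which is the direction opposite to that of Ctsd. Hk3, the hexokinase of myeloid cells, had -1.28 and -1.39 against 0.40 and 0.60.

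A ratio can differ between strains through either dye, so the channels were read apart, each as log2 signal minus the median of its array. For Slc40a1 the treated channel was at -2.80 and -1.85 with *B. clausii* and at 1.85 and 1.09 with *B. bifidum*, while the untreated channel was at 0.34 and 0.67, and 1.05 and 0.45, so that the arrays of the strains overlapped only in the untreated channel. Over the set that *B. clausii* held above untreated cells the median difference between the strains was 1.23 in the treated channel and -0.14 in the untreated channel. Over the opposite set it was -1.37 and -0.04. The treated channel kept the arrays of the strains apart in 55 of 57 and 87 of 87 genes, against 23.4% of all measured genes, and the untreated channel in 5 of 57 and 0 of 87, against 4.75%. Since the ratio is made of both channels, these shares follow in part from the rule.

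The 2 exceptions were Nucks1, a nuclear protein, and Arglu1. For Nucks1 the difference was 0.26 in the treated and -0.84 in the untreated channel, and for Arglu1 0.39 and -0.63, so for both the larger part of the gap lay in the channel of untreated cells. Stard4, at 1.61 and -0.50, also had untreated channels that did not overlap. For these 3 genes, as for others, part of the gap between the strains was thus measured on untreated cells. The untreated channel differed opposite to the treated one in 47 of 57 genes of the first set and 32 of 87 of the second. It was lower with *B. clausii* than with *B. bifidum* in 8909 of 12955 measured genes.

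**Figure D3:**
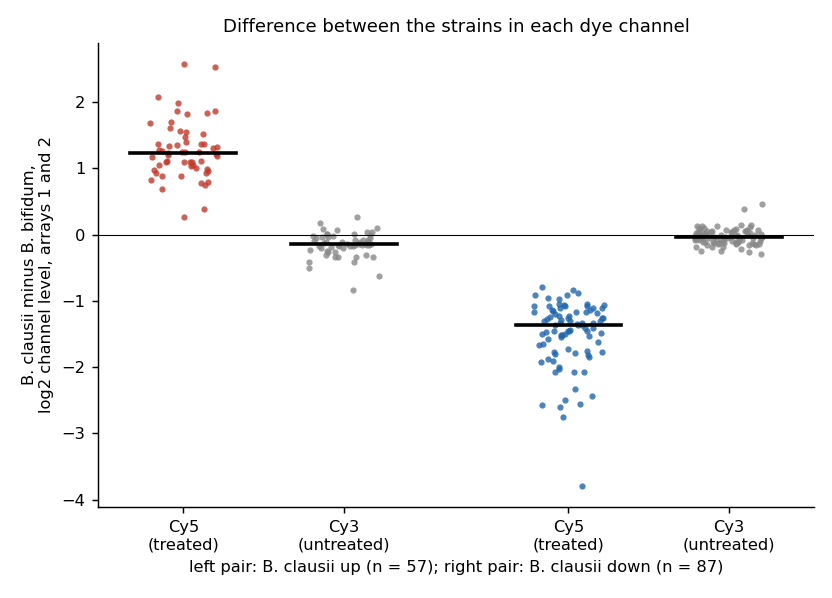
Difference between *B. clausii* and *B. bifidum* (log2 channel level, mean of arrays 1 and 2) for the 57 genes of the first set (left pair of columns) and the 87 of the second (right pair), 1 point per gene and channel, with the median as a black bar. The treated channel (Cy5) has medians of 1.23 and -1.37, and the untreated channel (Cy3) lies around 0 with medians of -0.14 and -0.04.

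Array 3 of each strain was not used by the rule and lies on the other slide. Both had a value for 43 of the 57 and 73 of the 87 genes; 28 of the 144 had none on *B. clausii* array 3 and 2 none on *B. bifidum* array 3. In the first set *B. clausii* 3 was above 0 and *B. bifidum* 3 below 0 for 10 of 43 genes (23.3%), against 17.7% of 8786 measured genes; *B. clausii* 3 alone was above 0 for 24 of 43, against 54.3%. In the second set the matching count, *B. clausii* 3 below 0 and *B. bifidum* 3 above, was 3 of 73 (4.11%), against 13.1%. Exactly the reverse held for 20 of 73 (27.4%), against 17.7% of measured genes. *B. clausii* 3 alone was below 0 for 30 of 73, against 45.7%. No member was past the threshold of 0.4 on both arrays in its direction (0 of 43 and 0 of 73), against 0.159% and 0.0455% of measured genes.

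The difference between the strains, *B. clausii* 3 minus *B. bifidum* 3, had a median of -0.03 in the first set and 0.10 in the second, against 0.04 over all measured genes, so in neither set did its sign match that of slide 2. It was above 0 for 19 of 43 genes of the first set, against 56.4% of measured genes, and below 0 for 21 of 73 of the second, against 43.6%. The median of the first set depended on the processing and was 0.025 with normexp and loess normalization.

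Slc40a1, with the widest gap on slide 2, had 0.48 with *B. clausii* 3 and 0.27 with *B. bifidum* 3, both above untreated cells. Cxcl10 had -0.38 and -0.24, and Ccl4 had -0.55 and -0.76, both below untreated cells with either strain. Egr2, at 0.07 and 0.31, and Ier3, at 0.13 and 0.25, were above 0 with both strains. Their differences between the strains, -0.24 and -0.12, had the sign opposite to that of slide 2. Among the NRF2 genes Hmox1 had -0.05 and -0.04, Gclm 0.16 and 0.22, Osgin1 -0.23 and -0.06, and Slc7a11 -0.17 and -0.35. Plau had 0.46 and -0.10, which is the reverse of slide 2.

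*B. clausii* array 3 is also the array with the fewest probes above background and the widest variation between spots, and the part of this in the difference between slides was not tested. *B. bifidum* array 3 was close to the others by those measures, with 23268 probes above background and a variation of 19.4% and 18.1%, and on it 23 of the 43 genes of the first set were below 0 (background 50.3%) and 26 of the 73 of the second above 0 (background 49.7%). Slide, scan and replicate cannot be told apart here, since each strain had 1 array on slide 1.

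**Figure D4:**
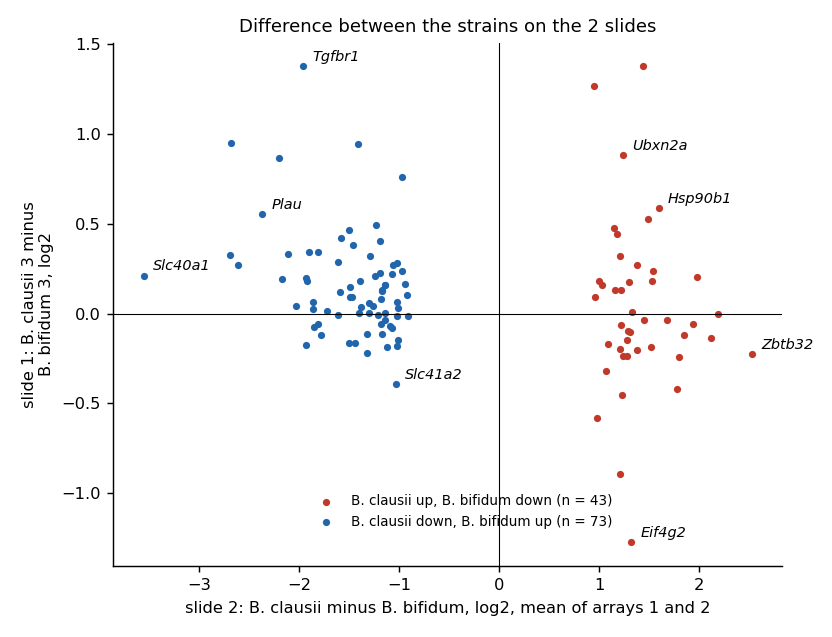
Difference between *B. clausii* and *B. bifidum* in log2 on slide 2 (horizontal axis, mean of arrays 1 and 2, which chose the genes) against the difference between their arrays 3 on slide 1 (vertical axis), 1 point per gene with both values. The 43 red points and the 73 blue points are both spread around 0 on the vertical axis, with medians of -0.03 and 0.10.

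The 10 of 43 and 3 of 73 genes whose arrays 3 had the direction of slide 2 (against 17.7% and 13.1% of measured genes) are by the rule the 13 genes with that direction on all 3 arrays of each strain; the second share is below the background and the first is near it, so this is no result about the members. Hnrnpa3 had a mean log2 ratio of 0.33 ± 0.18 (SD, n = 3) with *B. clausii* and -0.78 ± 0.57 (SD, n = 3) with *B. bifidum*. Rest had 0.51 ± 0.37 and -0.40 ± 0.17, Cldnd1, a claudin-like membrane protein, 0.55 ± 0.16 and -0.38 ± 0.35, and Bbs9, a part of the complex that serves cilia, 0.53 ± 0.23 and -0.39 ± 0.17 (SD, n = 3 each). On the other side Plxna1, a semaphorin receptor, had -0.52 ± 0.36 and 0.44 ± 0.29, and Fam219a had -0.44 ± 0.28 and 0.38 ± 0.29. Arrays 1 and 2 in these means are those that chose the genes.

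A limma fit to the 4 arrays of slide 1 tested what the rule had not used. It estimates the error from the 2 *L. acidophilus* arrays, which leaves 1 residual degree of freedom, and assumes that the single *B. clausii* and *B. bifidum* arrays vary as they do. For *B. clausii* array 3 the quality values go against that assumption, since its spots of a probe varied by 72.5% and 67.4%, against 13.99% to 16.5% on the *L. acidophilus* arrays. The standard errors and passing counts of the strain comparison are therefore too favourable and are given as values of these 2 arrays, not as a measured difference between the strains. The fit also took in members below background on *B. clausii* array 3. It tested 140 members, whereas both arrays 3 had a value for 116, so its counts by direction include such genes. For *B. clausii* 3 against *B. bifidum* 3 none of 140 members tested passed at an adjusted p of 0.05 (limma, Benjamini-Hochberg over 24296 probes), against 0% of all probes, and 46 of the 140 had an unadjusted p under 0.05, against 34.3% of all probes. In simulated data this fit recovered 0% of log2 changes of 0.5, 1 or 2, so its count of 0 carries no weight. The fit tested 56 members of the first set and 84 of the second. Of all probes, 15.3% were under that unadjusted p with *B. clausii* 3 the higher and 19% with it the lower. Of those 46, 10 genes of the first set and 7 of the second differed in the direction seen on slide 2, and 10 and 19 in the opposite direction.

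With an intensity trend and a robust prior, 72 of 140 members passed, against 36.8% of all probes: in the first set 15 in the direction of slide 2 and 15 against it, and in the second 10 in it and 32 against it. A stricter filter, under which 97 members were tested, gave 40, against 35.7% of probes, with 8 in it and 10 against it in the first set and 2 and 20 in the second. That filter left 36 members of the first set and 61 of the second. Of all probes, the trend gave 19.5% with *B. clausii* 3 the higher and 17.4% with it the lower. The stricter filter gave 19.4% and 16.3%. Of the genes with a symbol and with a value above background on both arrays 3, the widest gaps in the direction of slide 2 were Ubxn2a, an adaptor of the segregase p97, at 1.01 and 0.13 (difference 0.88 ± 0.07, SE), and Hsp90b1 at 0.67 and 0.09 (0.58 ± 0.12) in the first set, and Slc41a2, a magnesium transporter, at -0.71 and -0.32 (-0.39 ± 0.07) in the second. The widest gaps against it were Tgfbr1 at 1.70 and 0.33 (1.37 ± 0.07), Rnf144b at 0.97 and 0.02 (0.95 ± 0.08) and, in the first set, Eif4g2, a translation initiation factor, at -0.95 and 0.32 (-1.27 ± 0.11). None of these 6 passed in the fit without the trend, where the smallest adjusted p of limma over the members was 0.073.

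With *L. acidophilus*, whose 2 arrays both lay on slide 1, the 144 genes lay near untreated cells. On that slide the medians of *B. clausii* 3 and *B. bifidum* 3 were also near 0, over the genes with a value. They were 0.07 and -0.02 in the first set and 0.06 and -0.06 in the second. Strain and slide thus cannot be told apart for *L. acidophilus*. With this strain the median log2 ratio was -0.07 over 56 genes of the first set and 0.00 over 85 of the second, against 0.01 over all measured genes. Its lowest and highest values were -0.72 and 0.23 in the first set and -0.37 and 0.94 in the second. At or below -0.4 on both arrays was 1 gene of the first set, Ccl4, at -0.73 and -0.71 (background 1.13%), and at or above 0.4 was 1 of the second, a transcript without a symbol (background 2.38%). Ccl4 was thus below untreated cells on both *L. acidophilus*, all 3 *B. bifidum* arrays and *B. clausii* array 3, and above them on *B. clausii* arrays 1 and 2.

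Fnip2 came close to the upper threshold with 0.49 and 0.35, and Tgfbr1 had 0.40 and 0.39. In both cases this was the side that *B. bifidum* had under the rule. On slide 1 the *B. clausii* array was on that side too, at 0.74 for Fnip2 and 1.70 for Tgfbr1. The *B. bifidum* array of that slide had 0.41 and 0.33, so the shared sign does not tell the strains apart there. With *L. acidophilus* Cxcl10 had -0.38 and -0.32, Hmox1 -0.33 and -0.37, Lars -0.37 and -0.33, and Slc40a1 0.13 and 0.12. In simulated data the limma fit for *L. acidophilus* recovered 0% of log2 changes of 0.5 and 74.6% of changes of 1, and called 8 unchanged genes. The simulated error was the one this same fit had estimated, so these shares may be too favourable for the real arrays. In the real fit no probe passed, and the member transcript at 0.94 did not pass either. A lack of passing genes in that fit thus says nothing on changes of 0.5 or less, and no conclusion is drawn from it on changes near 1. Among the members none of 140 passed the limma fit for *L. acidophilus* against untreated cells at an adjusted p of 0.05, against 0% of all probes, and 50 had an unadjusted p under 0.05, against 31.7% of probes. With an intensity trend and a robust prior 77 passed, against 35.1%, and with the stricter filter 59 of 97, against 57.2%; of these 59, 23 were higher (27.2% of all probes) and 36 lower (30% of all probes).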

How the data were processed

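Gene expression was measured on 8 two-colour Agilent arrays, 4 on each of 2 slides. The deposited scanner files hold, per the file headers, spot intensity, an intensity per channel after background subtraction and dye normalization, and its log10 ratio. The software, Agilent Feature Extraction, is version 10.7.3.1 in the headers and 10.5.1.1 in the submitters' processing notes. The authors' deposited value table equalled that log10 ratio within 0.005.

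Here log2 of processed Cy5 over Cy3 was averaged per probe and centred on the array's median over probes above background in both channels. Members were also unsaturated on the rule's 4 arrays; a slide 1 value needed 1 channel above background and no outlier flag. Having no gene name column, the files used here were named through transcript accessions matched to RefSeq (GRCm38.p6): 27198 of 41174 probes matched, and 22 members count by accession. The brightest probe meeting the rule stands for its gene.

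Named genes were the 15 widest gaps per direction, members of 23 lists, those at the threshold and the 5 largest slide 1 differences each way; further members were picked by role with values seen. Members and lists were chosen with earlier results of these data known. Slide 1 was fitted with limma 3.58.1 (R 4.3.3; lmFit, eBayes, Benjamini-Hochberg), on probes above background in a channel on at least 2 arrays, and tested on simulated data. Alternatives were other thresholds, normexp (offset 50) with loess, the deposited table, no centring, other filters, a gene's mean over probes and leaving out arrays.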

Additional observations from a re-analysis of the deposited data

Results flagged for a closer look

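For 10 genes with a symbol, all 3 *B. clausii* arrays lay on 1 side of untreated cells and all 3 *B. bifidum* arrays on the other; the first and second arrays of each strain chose these genes, and the difference between the strains was not tested. The mean difference in log2, *B. clausii* minus *B. bifidum* over 3 arrays each, was 1.104 for Hnrnpa3, 1.01 for Ndufab1 (a mitochondrial acyl carrier protein), 0.94 for Cldnd1, 0.93 for Gcat (a threonine-degrading enzyme), 0.93 for Bbs9, 0.91 for Rest and 0.81 for Polr3g (a subunit of RNA polymerase III). It was -1.02 for Tnfrsf1b, -0.96 for Plxna1 and -0.81 for Fam219a. The other probe of Tnfrsf1b, that of Plxna1 and 1 of 3 other probes of Hnrnpa3 did not share this direction on slide 2. Counting transcripts without a symbol, the arrays 3 had the direction of slide 2 for 10 of 43 and 3 of 73 members, against 17.7% and 13.1% of measured genes.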

How the results depend on the processing

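The number of genes that met the rule depended on its threshold: at 0.3 it was 127 and 178 (*B. clausii* above, then below untreated cells), and at 0.6 it was 10 and 19. With normexp and loess normalization it was 34 and 34, of which 21 and 30 were among the 57 and 87; on that scale all 144 differences between the strains kept their sign, and 1 transcript without a symbol had a *B. clausii* array on the other side of 0. With 1 array left out the counts ran from 75 to 140 and from 96 to 136: leaving out the first *B. clausii* array gave 140, the first *B. bifidum* array 88 and 136, and the second *B. bifidum* array 95. The mean of a gene's probes gave 39 and 66, and the authors' deposited ratios gave 56 and 94. On slide 1, normexp and loess gave a median difference of 0.025 in the first set, and 12.3% of the second set in the direction of slide 2 on both arrays. Members passing the slide 1 fit numbered 0 with normexp and loess and with no filter in both comparisons, 40 and 72 for the strains with the stricter filter and with the intensity trend, and 59 and 77 for *L. acidophilus*. No paired analysis was possible because *B. clausii* and *B. bifidum* have 1 array each on slide 1 and share only the number 3 there, and the arrays numbered 1 and 2 chose the genes. Without a dye swap, a dye effect that differs between arrays was not corrected. Few arrays limit the precision.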
